A study of Mus musculus with 12 samples.

Results

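Interferon-stimulated effector genes were followed in 12 arrays of mouse bone marrow cells transformed by the leukaemia gene NUP98-HOXD13, a fusion of a nucleoporin with a homeobox protein. The set was given as 48 gene symbols, and its members were the probe sets that the array annotation assigns to one of these symbols alone. Of the 48 symbols, 45 matched, with 75 probe sets, among 19990 genes and unnamed probe sets tested in all. Isg15, Oas1g and Ifi44 were not matched to a probe set of that single symbol and were not analysed here. The 45 genes encode IFIT proteins, enzymes of the ISG15 system, oligoadenylate synthetases, RNA sensors, Mx, GBP and IRG GTPases, other antiviral restriction factors, PARP proteins and a remaining set of interferon-induced genes.

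Type I interferons bind a receptor made of IFNAR1 and IFNAR2, and the kinases JAK1 and TYK2 attached to it phosphorylate STAT proteins. A complex that holds STAT2 and IRF9 then enters the nucleus and binds interferon-stimulated response elements (ISRE), while interferon gamma acts at GAS elements. The genes so induced code for proteins that sense foreign nucleic acid, block its copying or translation, and damp the response itself. Monocytes, macrophages and dendritic cells are known for high expression of many of these genes.

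All 4 groups were grown from marrow of (C57Bl/6Ly-Pep3b x C3H/HeJ) F1 mice treated with 5-fluorouracil. This drug mainly spares the most primitive stem and progenitor cells. The marrow was infected with a retrovirus for NUP98-HOXD13, either ND13-GFP or ND13pac, and kept for 4 weeks in medium with 3 cytokines, namely 10 ng/ml human IL-6, 6 ng/ml mouse IL-3 and 100 ng/ml mouse stem cell factor. The cells then spent 2 days on irradiated E86 producers of a further retrovirus. For MIY-ctrl, the control, that virus was MIY, with yellow fluorescent protein alone. For MEIS1-WT it carried wildtype MEIS1, and for MEIS1-deltaHD a MEIS1 whose homeodomain, the part that binds DNA, was deleted. For M33-MEIS1 it carried a construct read here, from its name alone, as a fusion of MEIS1 with M33, an older name of the Polycomb protein Cbx2. The inserts were expressed from retroviral vectors and not from their own promoters. The sort gate and the time from infection to RNA do not appear in the sources used. The series record calls the 3 samples of a group independent experiments and names no animals, so p-values measure the spread between these samples.

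Values are array signals on a linear scale, set by the authors to the same trimmed mean on every array. Tests used log2(signal + 16), which understates the change of dim genes, in one limma model, and a gene passed at a Benjamini-Hochberg adjusted p below 0.05 over all 19990. The median signal of an array was 17.4 to 21.6 in control and 13.1 to 16 with the constructs. Pairs of arrays within a group had correlations of 0.982 to 0.989, taken over genes and so not over replicates. The 3' to 5' ratio of actin signal was 1.49 to 1.51 in control and 1.30 to 1.48 with the constructs, and that of Gapdh was 0.774 to 0.801 in control and 0.811 to 0.882 with the constructs, so both separated control from all 9 construct arrays. These ratios track RNA quality and labelling, and their part in the results below was not tested. Genes of all blood cells were bright on every array, with Coro1a at 3298 or more and Ptprc at 1507 or more. Against control, 18.3% to 22.7% of all features fell, depending on the construct, and 12.4% rose for M33-MEIS1. Of the 6 blood cell genes measured, 4 fell with each construct, and 1, Spn, rose with M33-MEIS1. Their summed signal was 12633 to 13854 in control, 8694 to 9210 with MEIS1-WT, 9791 to 10083 with MEIS1-deltaHD and 10152 to 10920 with M33-MEIS1. Of 4 measured markers of fibroblasts, such as the producer cells, the collagen genes Col1a1 and Col1a2 did not exceed 24.5, while Thy1 was at 86.6 to 141 and Pdgfrb at 137 to 365. Of the 4, Pdgfrb was lower with each construct (-0.69, -0.89 and -1.08 in the order MEIS1-WT, MEIS1-deltaHD, M33-MEIS1). The summed fibroblast signal was 420 to 507 in control and 237 to 342 with the constructs, and its part in the results was not tested. The mouse Meis1 probe set was at 168 to 205 in control, 129 to 148 with MEIS1-WT, 100 to 120 with MEIS1-deltaHD and 104 to 133 with M33-MEIS1. The sequence of the inserts was not analysed here, so this probe set does not check the labels.

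Promoter sequence from RefSeq (GRCm38.p6), covering 250 bases before to 50 after a gene's start, matched 33 of the 45 genes. The ISRE core, searched on both strands as GAAA, any 2 bases and GAAA (TTTC, any 2 bases and TTTC when read on the other strand), was found in 16 of the 33, or 48.5%, against 3.99% of all 27025 genes with such a window. The GAS core, TTCNNNGAA, which reads the same on both strands and was searched apart from the ISRE core, was found in 8 of the 33, or 24.2%, against 9.55% of all genes. Usp18, Oas2, Dhx58, Zbp1, Mx1, Mx2, Iigp1, Parp9, Parp14, Rtp4, Ifi27l2a and Tor3a had no matched entry. A match describes letters and does not show binding. The 7 stretches below, each 60 bases long and wholly upstream of the start, were taken only from genes with a match to the ISRE core there. Among such genes, Ifit1, Oas1a, Irgm1, Gbp2 and Rsad2 stand for families that fell against control. Gbp3 and Trim30a separated MEIS1-WT from the other constructs. Ifi35, which also passed as lower with MEIS1-WT than with either other construct, had no match to the ISRE core. Ifit2, Oasl1 and Oasl2 had none either. The stretches are written 5' to 3' in the direction of the gene, with matches to the ISRE core in capitals.
Ifit1, chr19:34640779-34640838, + strand: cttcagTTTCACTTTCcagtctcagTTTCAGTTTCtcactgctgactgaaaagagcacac
Oas1a, chr5:120907526-120907585, - strand: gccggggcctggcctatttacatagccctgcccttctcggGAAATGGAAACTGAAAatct
Irgm1, chr11:48871421-48871480, - strand: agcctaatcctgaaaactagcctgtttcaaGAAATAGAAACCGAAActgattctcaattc
Gbp2, chr3:142620579-142620638, + strand: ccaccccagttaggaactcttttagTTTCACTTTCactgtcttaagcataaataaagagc
Rsad2, chr12:26456538-26456597, - strand: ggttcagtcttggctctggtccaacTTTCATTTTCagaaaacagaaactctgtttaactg
Gbp3, chr3:142559980-142560039, + strand: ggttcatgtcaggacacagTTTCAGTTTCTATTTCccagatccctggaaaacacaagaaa
Trim30a, chr7:104465195-104465254, - strand: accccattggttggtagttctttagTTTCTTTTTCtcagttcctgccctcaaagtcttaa

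All 45 measured genes were lower than control with each of the 3 constructs, and none was higher. Among them Mx2 passed the filter on dim probe sets through its control arrays alone, so its direction was fixed in advance. With MEIS1-WT all 45 fell, where 19.4% of all features fell and 13.3% rose. Their median log2 difference was -2.94, with a range of -5.22 to -0.76, against a median of -0.12 over all features. With MEIS1-deltaHD all 45 fell, where 22.7% of all features fell and 13.8% rose, and the median was -2.65, with a range of -5.62 to -0.52, against -0.17 over all. With M33-MEIS1 all 45 fell, where 18.3% of all features fell and 12.4% rose, and the median was -2.36, with a range of -4.85 to -0.59, against -0.13 over all. In limma no member was higher at an unadjusted p below 0.05 in these comparisons either.

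Large falls made up most of the list. Here and below, 3 values given together stand in the order MEIS1-WT, MEIS1-deltaHD, M33-MEIS1. A fall of at least 1 on the log2 scale was seen in 42, 43 and 43 of the 45, against 3.76%, 3.78% and 2.47% of all features. A fall of at least 3 was seen in 22, 20 and 12, against 0.36%, 0.235% and 0.125%. For all 45 genes, every one of the 3 control arrays lay above every one of the 9 construct arrays, which held for 15.7% of all features. For Mx2 the filter fixed this separation in advance. A pass as lower with all 3 constructs, as seen for all 45, was seen for 11.8%. The 3 comparisons share the same control arrays, so they are not independent of one another. The highest adjusted p of any member from limma was 0.000539 with MEIS1-WT (Oasl1), 0.000259 with MEIS1-deltaHD (Gbp3) and 0.000365 with M33-MEIS1 (Gbp3). Under scaling of each array to a common median, all 45 still fell with each construct, while the split over all features turned to 10.1% lower and 21.1% higher with MEIS1-WT, 9.5% and 23% with MEIS1-deltaHD, and 8.2% and 19.1% with M33-MEIS1.

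**Figure D1:**
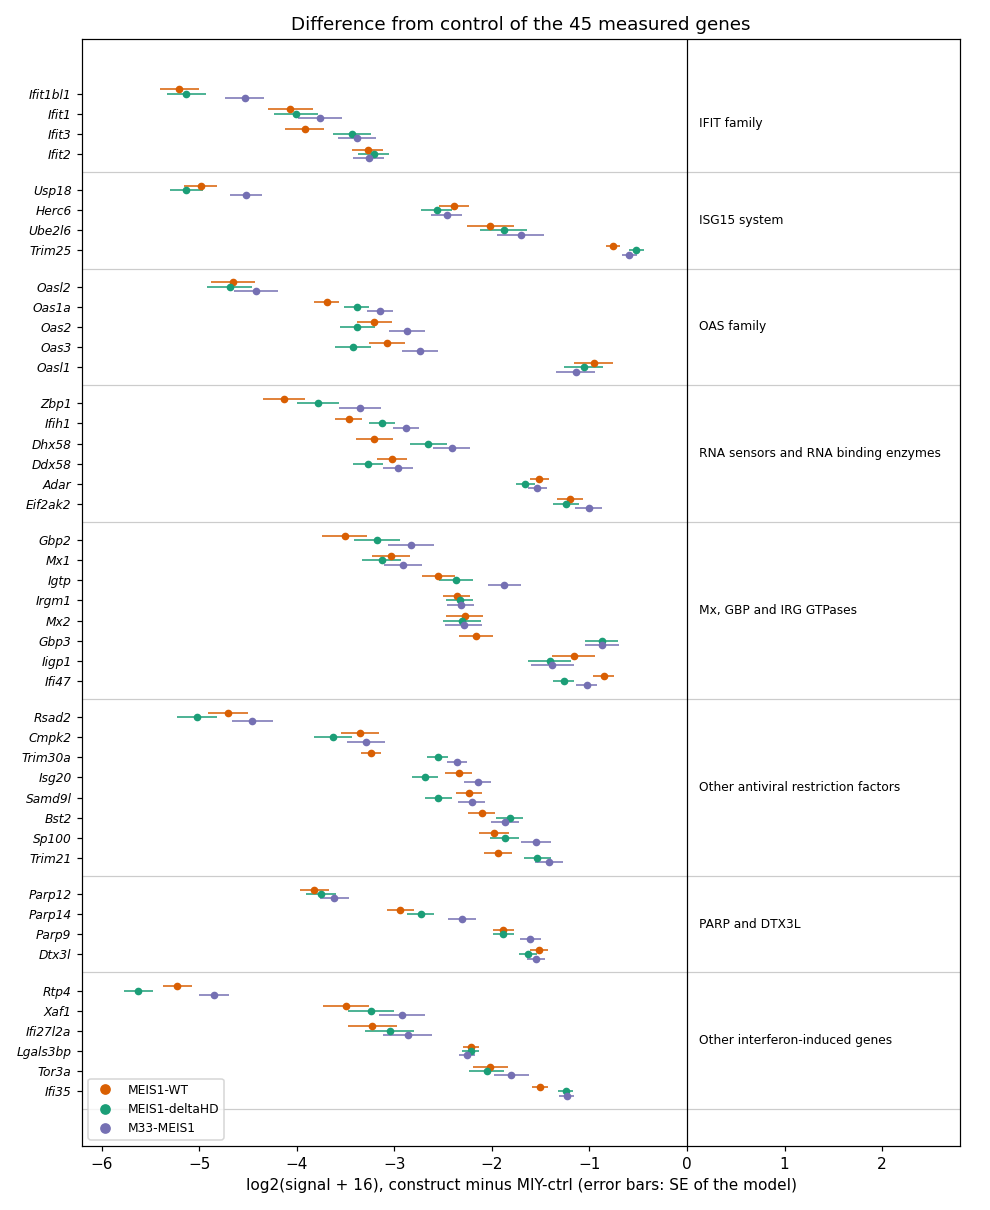
Differences from control in log2(signal + 16) for the 45 genes, grouped by role (points: estimate for each construct against 3 MIY-ctrl arrays; bars: standard error of the model). Every point lies below 0, from -5.62 for Rtp4 to -0.52 for Trim25, both with MEIS1-deltaHD.

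The IFIT genes, whose products bind foreign RNA and block its translation, were among the genes that fell furthest, with a median over 4 genes of -3.99, -3.72 and -3.57. The signal of Ifit1bl1, an Ifit1-like gene, was 662, 1170 and 1044 on control arrays, 17.0, 4.58 and 9.04 with MEIS1-WT, 8.08, 16 and 9.61 with MEIS1-deltaHD, and 35.7, 21.1 and 19.6 with M33-MEIS1. Ifit1, whose promoter stretch above holds the ISRE core at 2 places, was at 251, 488 and 392 in control, 4.62, 7.5 and 8.09 with MEIS1-WT, 8.22, 6.89 and 7.87 with MEIS1-deltaHD, and 5.42, 7.92 and 27.0 with M33-MEIS1. Control arrays were high and construct arrays near the dim end of the array in both genes, with M33-MEIS1 replicate 3 the highest construct array for Ifit1. Ifit2 was at 501, 948 and 785 in control and stayed measurable with the constructs, at 52.6 to 69.5 with MEIS1-WT, 51.0 to 71.4 with MEIS1-deltaHD and 58.8 to 61.7 with M33-MEIS1. Against control, MEIS1-WT differed on the log2 scale by -5.20 for Ifit1bl1 (SE 0.202, adjusted p = 5.67e-16 from limma), -4.07 for Ifit1 (SE 0.229, adjusted p = 8.4e-13) and -3.27 for Ifit2 (SE 0.161, adjusted p = 6.82e-14). Ifit3, the remaining member, differed by -3.92, -3.43 and -3.38 with the 3 constructs.

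The ISG15 system attaches the small ubiquitin-like protein ISG15 to other proteins, and its 4 measured genes had medians of -2.20, -2.22 and -2.09. Usp18, the protease that removes ISG15 and also blocks signalling at IFNAR2, was at 916, 1368 and 1355 in control, 30.0, 25.3 and 13.3 with MEIS1-WT, 17.6, 16.1 and 22 with MEIS1-deltaHD, and 39.3, 30.0 and 41.4 with M33-MEIS1. Herc6, the main ISG15 ligase of the mouse, was at 245, 314 and 294 in control, 39.5, 38.9 and 45.3 with MEIS1-WT, 40.7, 26.5 and 37.5 with MEIS1-deltaHD, and 46.6, 26.1 and 44.5 with M33-MEIS1. Control did not overlap with any construct array for either gene, and Usp18 was far below its control range on each construct array. Trim25, a ubiquitin ligase that acts on the RNA sensor RIG-I, was at 747, 748 and 797 in control, 442, 449 and 445 with MEIS1-WT, 545, 520 and 520 with MEIS1-deltaHD, and 538, 489 and 481 with M33-MEIS1. Trim25 was therefore the member that fell least, while its arrays were still fully separated from control. On the log2 scale the MEIS1-WT arrays differed from control by -4.98 for Usp18 (SE 0.167, adjusted p = 4.03e-17 from limma), -2.39 for Herc6 (SE 0.158, adjusted p = 1.6e-11) and -0.76 for Trim25 (SE 0.0746, adjusted p = 1.64e-08). Ube2l6, the enzyme that hands ISG15 to the ligases, differed by -2.02, -1.88 and -1.71.

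Oligoadenylate synthetases make short oligoadenylates that switch on RNase L. The 5 measured genes of this family, the OAS-like Oasl1 and Oasl2 among them, had medians of -3.21, -3.38 and -2.87. Oasl2 was at 427, 712 and 659 in control, 0.809, 12.7 and 12.1 with MEIS1-WT, 3.58, 10.9 and 8.19 with MEIS1-deltaHD, and 21.0, 4.96 and 12.9 with M33-MEIS1. Oas1a was at 940, 1366 and 1300 in control, 88.8, 68.9 and 74.4 with MEIS1-WT, 92.5, 98.1 and 107 with MEIS1-deltaHD, and 104, 114 and 144 with M33-MEIS1. Oasl1, known to limit translation of Irf7, was at 30.6, 50.6 and 53.0 in control, 12.4, 17.3 and 15.0 with MEIS1-WT, 9.31, 13.6 and 15.6 with MEIS1-deltaHD, and 13.5, 13.7 and 6.67 with M33-MEIS1. Oasl2 and Oas1a were bright in control, whereas Oasl1 was dim there and still did not overlap with any construct array. With MEIS1-WT the log2 differences were -4.66 for Oasl2 (SE 0.229, adjusted p = 6.36e-14 from limma), -3.69 for Oas1a (SE 0.130, adjusted p = 9.64e-17) and -0.96 for Oasl1 (SE 0.200, adjusted p = 0.000539). Oas2 and Oas3 differed by -3.21 and -3.08 with MEIS1-WT, -3.38 and -3.43 with MEIS1-deltaHD, and -2.87 and -2.74 with M33-MEIS1.

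Among RNA sensors and RNA-binding enzymes, 6 genes had medians of -3.12, -2.89 and -2.65. Zbp1, a sensor of left-handed nucleic acid that can start necroptosis, was at 238, 296 and 350 in control, 0.874, 2.55 and 1.18 with MEIS1-WT, 0.714, 12.7 and 7.32 with MEIS1-deltaHD, and 22.8, 6.43 and 15.3 with M33-MEIS1. Ifih1 (MDA5), which senses long double-stranded RNA, was at 556, 864 and 721 in control, 52.4, 42.3 and 52.6 with MEIS1-WT, 55.1, 76.1 and 69.2 with MEIS1-deltaHD, and 82.8, 75.7 and 86.8 with M33-MEIS1. Both were separated from control on every array, with the MEIS1-WT arrays of Ifih1 also below all others. Eif2ak2 (PKR), the kinase that stops translation on binding double-stranded RNA, was at 202, 224 and 288 in control, 87.6, 106 and 87.9 with MEIS1-WT, 109, 95.5 and 70.3 with MEIS1-deltaHD, and 105, 108 and 114 with M33-MEIS1. Against control, MEIS1-WT differed on the log2 scale by -4.13 for Zbp1 (SE 0.216, adjusted p = 2.08e-13 from limma), -3.47 for Ifih1 (SE 0.137, adjusted p = 8.1e-16) and -1.20 for Eif2ak2 (SE 0.137, adjusted p = 1.74e-07). Ddx58 (RIG-I) differed by -3.03, -3.27 and -2.96, and the RNA-editing enzyme Adar by -1.51, -1.66 and -1.54. Dhx58 (LGP2), a partner of both sensors, differed by -3.20, -2.65 and -2.41. A dimmer Dhx58 probe set, at a mean of 19.8 in control, did not pass (log2 differences of -0.40, -0.54 and -0.42, adjusted p = 0.216, 0.0749 and 0.198 from limma over unfiltered probe sets).

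The 8 GTPases of the Mx, GBP and IRG families, which trap viral particles or attack the vacuoles of intracellular microbes, had medians of -2.32, -2.32 and -2.08. Gbp2 was at 216, 295 and 312 in control, 11.9, 17.5 and 1.11 with MEIS1-WT, 13.5, 20.3 and 13.8 with MEIS1-deltaHD, and 18.3, 16.2 and 43.9 with M33-MEIS1. Mx1 was at 132, 226 and 179 in control, 8.73, 7.5 and 5.82 with MEIS1-WT, 7.69, 8.40 and 2.06 with MEIS1-deltaHD, and 6.29, 10.7 and 11.8 with M33-MEIS1. Ifi47 (Irgd) was at 713, 1060 and 895 in control, 443, 468 and 530 with MEIS1-WT, 349, 365 and 356 with MEIS1-deltaHD, and 433, 382 and 454 with M33-MEIS1. Gbp2 and Mx1 were dim on all construct arrays, while Ifi47 kept a clear signal in every group. On the log2 scale the MEIS1-WT arrays differed from control by -3.51 for Gbp2 (SE 0.232, adjusted p = 1.6e-11 from limma), -3.04 for Mx1 (SE 0.197, adjusted p = 1.1e-11) and -0.85 for Ifi47 (SE 0.107, adjusted p = 7.73e-07). Mx2 (-2.28, -2.31 and -2.29) passed the filter on dim probe sets through its control arrays alone, so it had to differ. The IRG members Igtp (-2.55, -2.37 and -1.87), Irgm1 (-2.36, -2.33 and -2.32) and Iigp1 (-1.16, -1.41 and -1.38) also fell with each construct.

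Of the other antiviral restriction factors, 8 genes had medians of -2.29, -2.55 and -2.18. Rsad2 (viperin), which makes a chain-terminating nucleotide, was at 733, 1542 and 1157 in control, 28.8, 22.3 and 29.0 with MEIS1-WT, 14.3, 14.0 and 27.8 with MEIS1-deltaHD, and 24.6, 31.0 and 51.6 with M33-MEIS1. Cmpk2, a nucleotide kinase encoded next to Rsad2, was at 336, 548 and 462 in control, 30.0, 16.9 and 43.5 with MEIS1-WT, 26.4, 16.5 and 20.4 with MEIS1-deltaHD, and 31.4, 39.5 and 22.9 with M33-MEIS1. Both neighbours were low on all 9 construct arrays. Trim21, the cytosolic receptor for antibody-coated viruses, was at 166, 200 and 203 in control, 45.1, 40.9 and 28.1 with MEIS1-WT, 49.6, 56.8 and 58.5 with MEIS1-deltaHD, and 65.2, 65.0 and 52.9 with M33-MEIS1. With MEIS1-WT the log2 differences were -4.70 for Rsad2 (SE 0.209, adjusted p = 8.69e-15 from limma), -3.35 for Cmpk2 (SE 0.196, adjusted p = 1.73e-12) and -1.94 for Trim21 (SE 0.141). The exonuclease Isg20 (-2.34, -2.69 and -2.15), the virion tether Bst2 (-2.10, -1.82 and -1.87), Samd9l (-2.24, -2.55 and -2.21) and the nuclear body protein Sp100 (-1.98, -1.87 and -1.55) fell as well.

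The 4 genes of the PARP and DTX3L group, which add ADP-ribose or ubiquitin to proteins, had medians of -2.41, -2.30 and -1.96. Parp12 was at 474, 573 and 648 in control, 26.5, 22.2 and 26.1 with MEIS1-WT, 30.0, 20.6 and 30.7 with MEIS1-deltaHD, and 34.6, 36.8 and 22.9 with M33-MEIS1. Parp14 was at 410, 573 and 572 in control, 44.3, 51.6 and 64.2 with MEIS1-WT, 62.4, 56.0 and 74.0 with MEIS1-deltaHD, and 103, 89.8 and 80.9 with M33-MEIS1. The arrays of M33-MEIS1 were the highest of the construct arrays for Parp14 in this probe set, with no overlap with the other constructs. In another Parp14 probe set MEIS1-WT was higher than M33-MEIS1, a difference that did not pass. Dtx3l, the ubiquitin ligase that works with Parp9, was at 612, 627 and 678 in control, 244, 199 and 196 with MEIS1-WT, 195, 184 and 207 with MEIS1-deltaHD, and 208, 218 and 200 with M33-MEIS1. Parp14, Dtx3l and Parp9 follow each other in the RefSeq gene order (GRCm38.p6), and with MEIS1-WT they differed from control by -2.94, -1.52 and -1.88, against -3.82 for Parp12 (SE 0.151, adjusted p = 8.56e-16 from limma).

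The 6 remaining interferon-induced genes had medians of -2.72, -2.63 and -2.56. Rtp4, a chaperone of receptors, was at 1307, 1702 and 1593 in control, 21.1, 22.4 and 33.1 with MEIS1-WT, 11.2, 19.3 and 15.7 with MEIS1-deltaHD, and 38.5, 28.5 and 46.9 with M33-MEIS1. Xaf1, a proapoptotic protein that binds XIAP, was at 261, 352 and 422 in control, 26.4, 4.16 and 20.3 with MEIS1-WT, 26.0, 12.9 and 27.6 with MEIS1-deltaHD, and 24.6, 23.7 and 48.1 with M33-MEIS1. Ifi35 was at 1636, 1954 and 1918 in control, 597, 645 and 662 with MEIS1-WT, 746, 762 and 786 with MEIS1-deltaHD, and 783, 795 and 733 with M33-MEIS1. Rtp4 had the largest difference of any member in each comparison with control, whereas Ifi35 stayed bright in all groups. Against control, MEIS1-WT differed on the log2 scale by -5.22 for Rtp4 (SE 0.151, adjusted p = 2.69e-18 from limma), -3.50 for Xaf1 and -1.51 for Ifi35 (SE 0.0781, adjusted p = 1.82e-13). Lgals3bp (-2.21, -2.22 and -2.26), Ifi27l2a (-3.23, -3.05 and -2.86) and Tor3a (-2.02, -2.05 and -1.80) fell with each construct too.

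**Figure D2:**
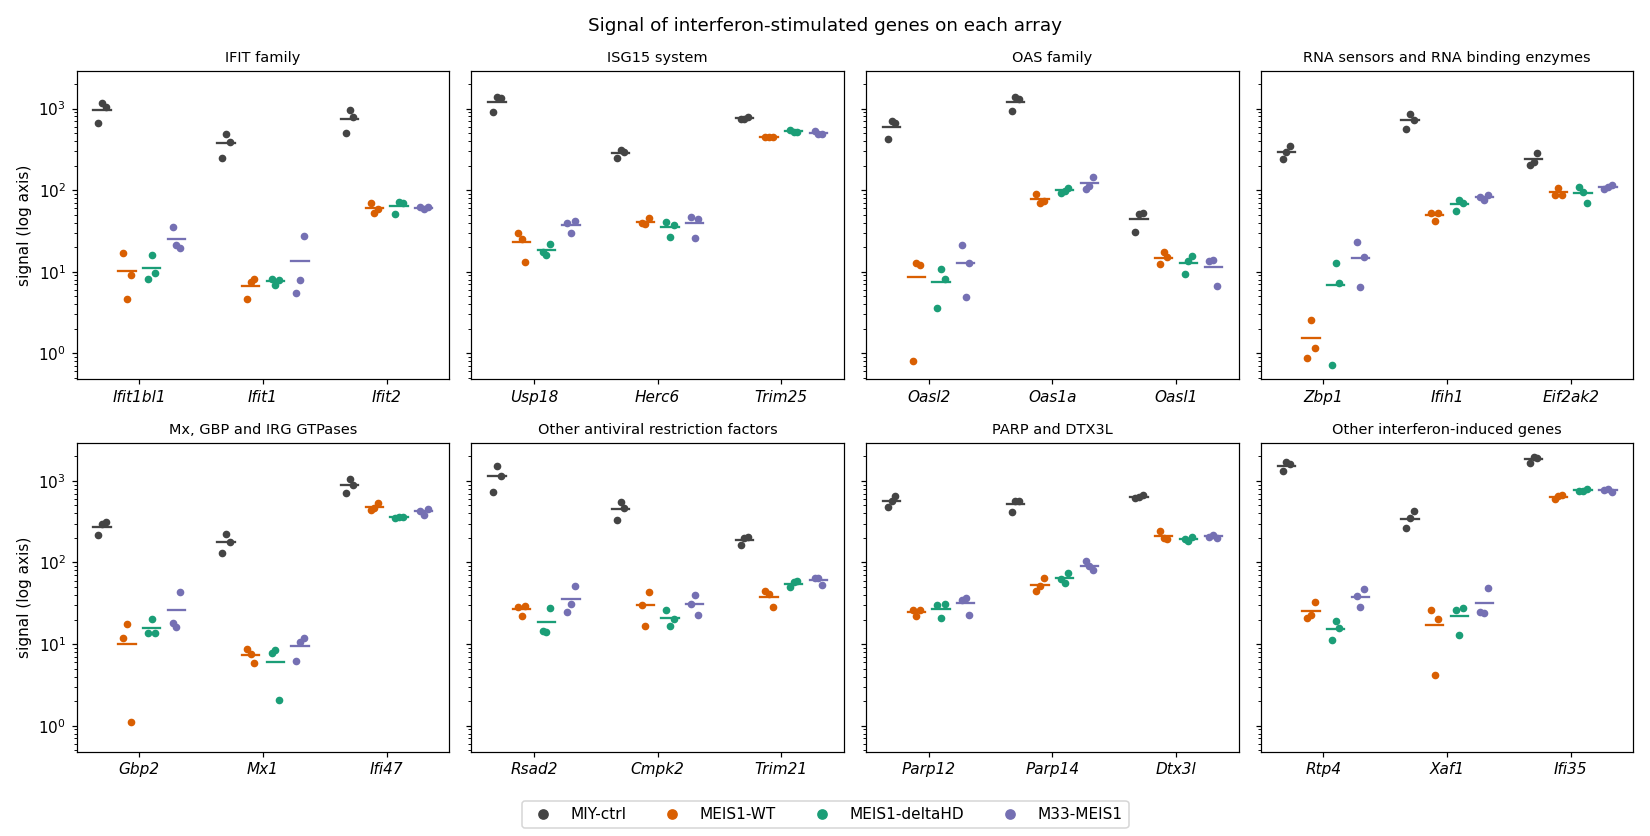
Array signal on a log axis for 3 genes of each role group (points: single arrays; lines: group means of 3 arrays). The MIY-ctrl points lie above all construct points for every gene shown, by a wide gap for Rtp4 (1307 to 1702 against 11.2 to 46.9) and a narrow one for Trim25 (747 to 797 against 442 to 545).

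Many members were close to the dim end of the arrays with the constructs. The filter required 3 arrays on which a probe set exceeded the 40th percentile of all signals, and that percentile lay at a signal of 11.1 to 14.8 in control and 8.21 to 10.5 with the constructs. In control, 45 of 45 members lay above it on all 3 arrays. With MEIS1-WT this held for 32, with MEIS1-deltaHD for 34 and with M33-MEIS1 for 36, and 6, 4 and 1 members were at or below it on all 3 arrays. For such genes the size of the fall depends on the offset of 16. Genes with more than 1 probe set numbered 20. Tested singly without the filter, 74, 73 and 74 of the 75 probe sets were lower with the constructs in the order above, where 11.9%, 14.1% and 11.1% of all probe sets were.

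Within the control group the arrays were not alike. Replicate 1 was the highest of the 3 control arrays in 0 of the 45 members, replicate 2 in 28 and replicate 3 in 17. As a median over the 45 genes, the control arrays lay -0.27, 0.14 and 0.10 from each gene's control mean in log2(signal + 16). The construct arrays lay at -2.86, -2.88 and -2.72 with MEIS1-WT, -2.75, -2.74 and -2.48 with MEIS1-deltaHD, and -2.28, -2.41 and -2.31 with M33-MEIS1, so no construct array came near the spread of the control arrays. The median SD of the members within a group was 0.269 in control, against 0.171 over all features there, and 0.145, 0.170 and 0.176 with the constructs.

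Genes with and without the ISRE core near their start both fell. The 16 genes with it had a median of -3.16, -3.15 and -2.78 with the constructs in the same order, and the 17 matched genes without it -2.21, -2.22 and -2.15. The ranges overlapped widely, from -5.20 to -1.20 with the core and from -4.66 to -0.76 without it in the MEIS1-WT comparison. Oasl2, without the core in its window, fell by more than Gbp3, whose stretch above holds it in overlapping copies.

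Markers of monocytes and macrophages moved with these genes, and so did part of other myeloid lists. Of the monocyte and macrophage markers, all 8 measured fell with each construct, where 19.4%, 22.7% and 18.3% of all features did. The medians of the 8 markers were -3.65, -1.94 and -1.51. Lyz2, the lysozyme of myeloid cells, differed by -5.41, -3.07 and -1.99, Mpeg1 by -5.27, -2.80 and -2.12, and Csf1r, the receptor of the growth factor M-CSF, by -5.06, -1.87 and -1.30. The summed signal of the 8 markers was 11856 to 13352 in control, 592 to 710 with MEIS1-WT, 2286 to 2460 with MEIS1-deltaHD and 3533 to 4038 with M33-MEIS1, with none of the markers at 0. Their part in the fall of the interferon-stimulated genes was not tested. In bulk samples, fewer cells of a type and less RNA per cell cannot be told apart.

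The orders of the groups differed in spacing. From MEIS1-WT to M33-MEIS1 the median of the interferon-stimulated genes ran from -2.94 to -2.36, and that of the monocyte and macrophage markers from -3.65 to -1.51. Between MEIS1-WT and MEIS1-deltaHD, 7 of 8 markers were lower with MEIS1-WT, where 2.83% of all features were. The median of these 8 markers was -1.55, while the median of the 45 genes was -0.03. Markers of plasmacytoid dendritic cells, which make much type I interferon, had 2, 3 and 2 of 5 measured genes lower, where 19.4%, 22.7% and 18.3% of all features were, led by Cox6a2 (-2.78, -2.77 and -2.84), and their summed signal was 409 to 703 in control against 226 to 299 with the constructs. Of 6 mast cell markers 6, 5 and 1 fell and 0, 0 and 2 rose. Of 6 neutrophil markers 4, 1 and 1 fell and 0, 3 and 3 rose, and of 6 markers of myeloid progenitors 1, 1 and 1 fell and 3, 4 and 5 rose, where 13.3%, 13.8% and 12.4% of all features rose. The part of these lists in the result was not tested either. The B cell markers Pax5 and Ms4a1 and the T cell marker Cd3e were dim throughout, at 18.8 or less on all 12 arrays.

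**Figure D3:**
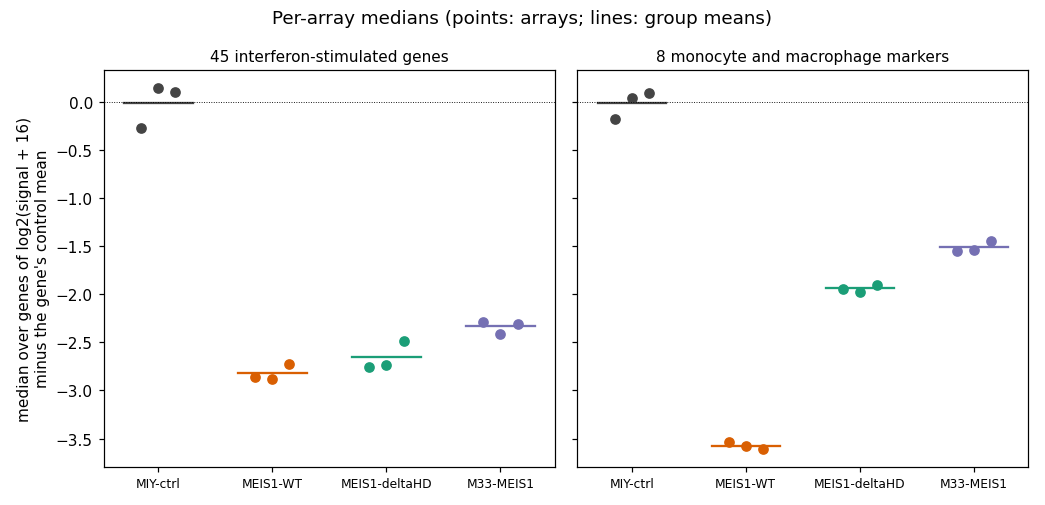
Median over genes of log2(signal + 16) minus each gene's control mean, for each array (points) with group means (lines), for the 45 interferon-stimulated genes (left) and 8 monocyte and macrophage markers (right). The interferon-stimulated genes lie between -2.88 and -2.28 on the construct arrays, while the markers run from -3.61 with MEIS1-WT to -1.44 with M33-MEIS1.

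Comparing the constructs with one another asks whether loss of the homeodomain, or the M33-MEIS1 construct, goes with a different level of these genes. MEIS1-WT against MEIS1-deltaHD gave 3 lower members, Gbp3, Trim30a and Ifi35, and 1 higher member, Ifi47, of 45, where 2.83% of all features were lower and 2.43% higher. At an unadjusted p below 0.05 from limma, 10 members were lower and 4 higher, and the share over all features was not counted there. The median difference was -0.03, against 0.03 over all features, with 24 members below 0 and 21 above. The 95% interval of the difference lay within 1 log2 unit of 0 for 44 of the 45, all but Gbp3. The offset of 16 shrinks differences between dim members, so for them this does not bound the fold difference in signal. Dhx58, at a mean signal of 5.33 with MEIS1-WT and 15.2 with MEIS1-deltaHD, differed by -0.55 and counted as within 1. A p above the threshold does not show that the constructs act alike, and the median width of an interval on either side was 0.334.

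Gbp3, a guanylate-binding GTPase, showed the largest difference. Its signal was 111, 93.6 and 135 in control, 13.8, 9.48 and 14.7 with MEIS1-WT, 75.6, 40.1 and 50.1 with MEIS1-deltaHD, and 58.3, 48.8 and 55.6 with M33-MEIS1. The MEIS1-WT arrays lay below all others, and the remaining constructs lay between them and control. The log2 difference was -1.29 from MEIS1-deltaHD (95% interval -1.64 to -0.93, adjusted p = 1.56e-05 from limma) and -1.29 from M33-MEIS1 (-1.65 to -0.94, adjusted p = 9.47e-06). Gbp2, which lies near Gbp3 in the RefSeq order with 1 gene between them, did not pass in either comparison.

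Trim30a, a TRIM protein known to restrain inflammatory signalling, was at 1250, 1589 and 1703 in control, 138, 147 and 149 with MEIS1-WT, 217, 237 and 275 with MEIS1-deltaHD, and 299, 270 and 272 with M33-MEIS1. Its MEIS1-WT arrays were also below all other arrays, and another probe set of the gene had the same order of group means. The difference from MEIS1-deltaHD no longer passed when the probe set with the largest adjusted p stood for the gene (-0.40, adjusted p = 0.0908 from limma). In the probe set used here it was -0.68 from MEIS1-deltaHD (95% interval -0.90 to -0.47, adjusted p = 8.12e-05 from limma) and -0.88 from M33-MEIS1 (-1.10 to -0.67, adjusted p = 1.4e-06). Gbp3 and Trim30a passed both comparisons in all 12 fits that left out 1 array. Ifi47 ran the other way, 0.41 higher with MEIS1-WT than with MEIS1-deltaHD (95% interval 0.19 to 0.63, adjusted p = 0.0206), and passed in 7 of those 12 fits. Its value was 0.34 (adjusted p = 0.125) without MEIS1-WT replicate 3, and it also failed without MEIS1-WT replicate 2 or any 1 of the MEIS1-deltaHD arrays. The difference of Ifi35 was -0.26 (adjusted p = 0.0496) and passed in 4 of the 12 fits, in none that left out an array of either group compared.

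MEIS1-WT against M33-MEIS1 gave 11 lower members and 0 higher of 45, where 4.11% of all features were lower and 2.36% higher. In limma 19 members were lower and 0 higher at an unadjusted p below 0.05, a threshold at which the share over all features was not counted. The median difference was -0.27, against 0.00 over all features, with 37 members below 0. Beside Gbp3, Trim30a and Ifi35 (-0.27, adjusted p = 0.0338) the lower members were the RNA sensors Dhx58 (-0.79, adjusted p = 0.00823), Zbp1 (-0.78, adjusted p = 0.0273) and Ifih1 (-0.59, adjusted p = 0.00687), and Igtp (-0.68, adjusted p = 0.0126), Ifit1bl1 (-0.67, adjusted p = 0.0477), Parp14 (-0.63, adjusted p = 0.00399), Oas1a (-0.54, adjusted p = 0.00865) and Trim21 (-0.52, adjusted p = 0.0236). Dhx58 was at 4.5, 2.59 and 8.91 with MEIS1-WT and 16.5, 20.8 and 25.1 with M33-MEIS1, so its 2 groups did not overlap. The 95% intervals lay within 1 log2 unit of 0 for 37 of the 45 members, which the offset of 16 again makes easier for dim members. Of the 12 fits that left out 1 array, Parp14 passed in all, Dhx58 and Ifih1 in 11, Oas1a in 10, Igtp and Trim21 in 9, Ifi35 in 8, Zbp1 in 7 and Ifit1bl1 in 5. The count of 11 fell to 5 without MEIS1-WT replicate 2, where adjusted p rose to 0.121 for Igtp and 0.239 for Ifit1bl1, to 7 without MEIS1-WT replicate 3 (0.153 for Trim21) and to 7 without M33-MEIS1 replicate 1 (0.165 for Zbp1). Without M33-MEIS1 replicate 3 Igtp (0.135) and Oas1a (0.0811) did not pass, and without M33-MEIS1 replicate 2 Ifi35 (0.113). The count of lower members was 5 when the probe set with the largest adjusted p stood for each gene. The log2 differences of Dhx58, Trim21 and Parp14 were then 0.02, 0.04 and 0.34, opposite in sign, and did not pass.

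M33-MEIS1 against MEIS1-deltaHD gave 1 higher member, Rtp4, and 0 lower, where 0.67% of all features were higher and 0.04% lower. In limma 13 members were higher and 0 lower at an unadjusted p below 0.05, a threshold at which the share over all features was not counted. Rtp4 was 0.77 higher with M33-MEIS1 (95% interval 0.46 to 1.09, adjusted p = 0.00926). Its M33-MEIS1 arrays, at 28.5 to 46.9, lay above its MEIS1-deltaHD arrays, at 11.2 to 19.3. The median difference of the 45 was 0.24, against 0.02 over all features, with 40 above 0. Rtp4 did not pass without MEIS1-deltaHD replicate 1 (0.67, adjusted p = 0.0965) or without M33-MEIS1 replicate 3 (0.66, adjusted p = 0.0895), and a dimmer Rtp4 probe set gave 0.05 (adjusted p = 0.964).

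**Figure D4:**
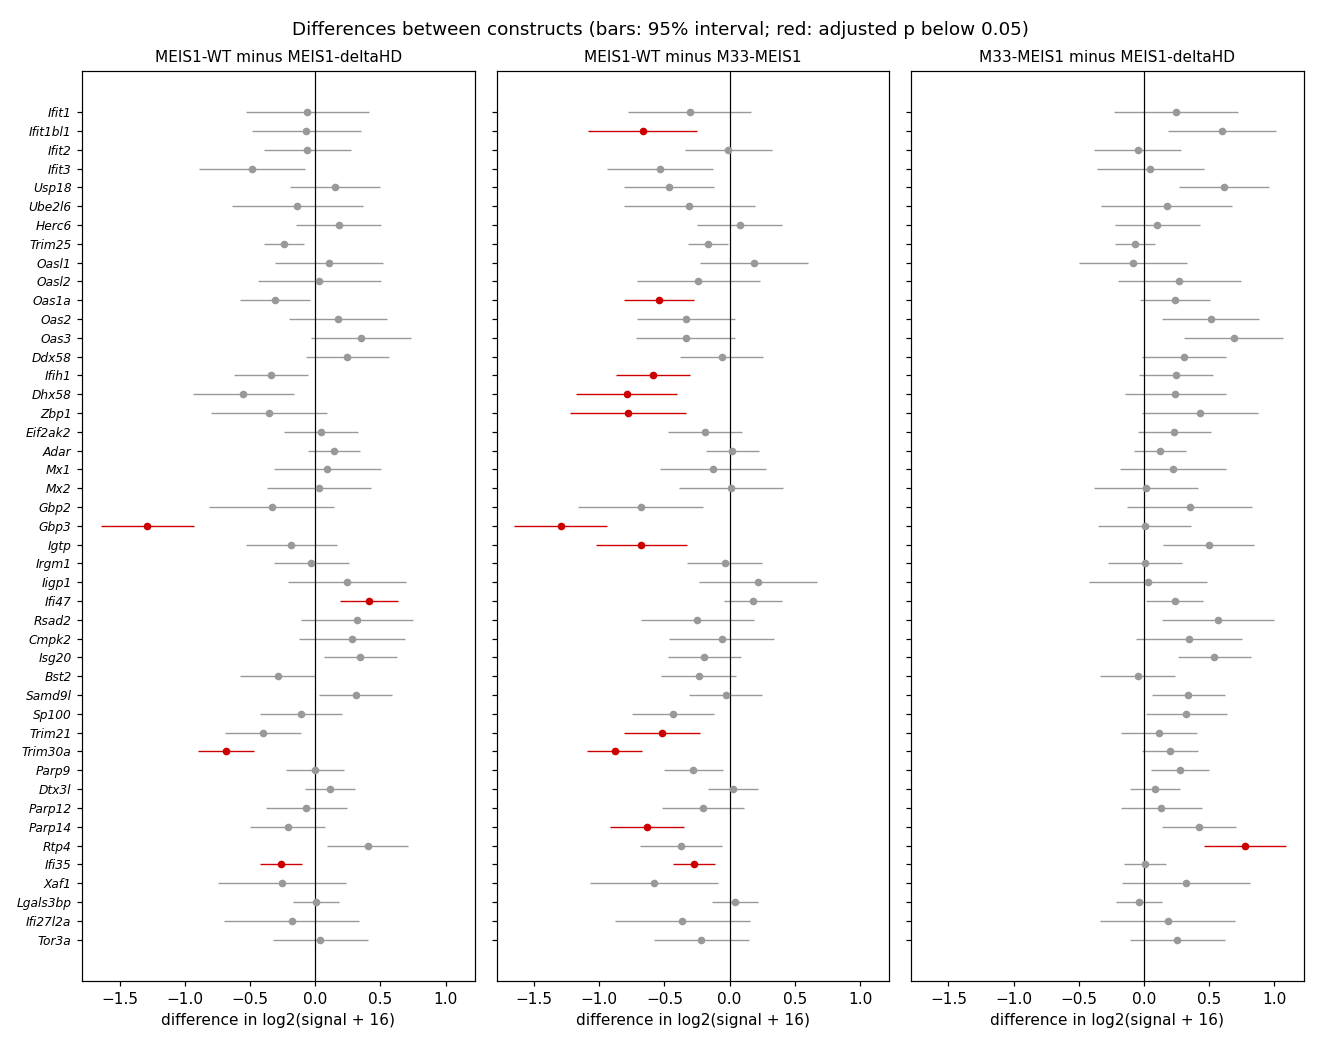
Differences between constructs in log2(signal + 16) for each of the 45 genes (points: estimates; bars: 95% intervals; red: adjusted p below 0.05). Gbp3 stands furthest from 0, at -1.29 in both comparisons of MEIS1-WT, and Rtp4 alone is red in the comparison of M33-MEIS1 with MEIS1-deltaHD.

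Genes counted as upstream of these effectors came from lists of interferon ligands, receptors and kinases, STAT and IRF factors, inhibitors and nucleic acid sensors. Of these, 34 genes were measured. A listed gene can itself be induced by interferon, as Ifi204 is, and the order of these changes was not tested. Against control 23, 17 and 14 of the 34 fell with the constructs in the same order, where 19.4%, 22.7% and 18.3% of all features did, and 0 rose in limma, with 0, 1 and 0 higher at an unadjusted p below 0.05. Of the ligands, 0 of 2 passed in any of these comparisons, and 0 did at an unadjusted p below 0.05. Ifnb1, interferon beta, was at 13.3, 31.8 and 18.4 in control, 9.62, 7.83 and 22.3 with MEIS1-WT, 13.9, 10.7 and 7.89 with MEIS1-deltaHD, and 8.51, 23.5 and 14.4 with M33-MEIS1. Its groups overlapped, all near the dim end of the arrays, where a difference is hard to detect (-0.35, adjusted p = 0.284 with MEIS1-WT). Ifna5, the other ligand, was at 15.2 or less on all arrays.

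Receptors and Janus kinases gave 8, 5 and 4 of 8 lower. Ifnar2, the signalling chain of the type I receptor, was at 590, 573 and 663 in control, 251, 257 and 286 with MEIS1-WT, 407, 327 and 347 with MEIS1-deltaHD, and 342, 352 and 313 with M33-MEIS1. Its log2 differences of -1.15, -0.73 and -0.83 passed with each construct, as did those of Jak2 at -0.94, -0.63 and -0.40. Ifnar1, the partner chain, passed with MEIS1-WT alone at -0.50 (adjusted p = 0.000571 from limma), with -0.17 and -0.01 for the others. The interferon gamma receptor genes Ifngr1 (-0.42, 0.05 and 0.22) and Ifngr2 (-0.63, 0.16 and 0.16) likewise passed with MEIS1-WT, and both were lower with MEIS1-WT than with MEIS1-deltaHD (-0.48 and -0.79, adjusted p = 0.0109 and 0.00306) and than with M33-MEIS1 (-0.64 and -0.78, adjusted p = 0.000412 and 0.00258).

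Of 8 STAT and IRF factors 7, 6 and 6 fell. Irf7, the factor that amplifies interferon alpha production, was at 278, 401 and 439 in control, 22.5, 15.7 and 9.41 with MEIS1-WT, 19.5, 6.91 and 21.2 with MEIS1-deltaHD, and 21.5, 11.9 and 36.6 with M33-MEIS1. Its log2 differences were -3.60, -3.62 and -3.33 (adjusted p = 5.33e-12, 6.94e-12 and 4.69e-11 from limma), with no overlap between control and constructs. Irf9 and Stat2, parts of the ISRE-binding complex, differed by -2.37, -2.40 and -2.03 and by -2.02, -1.98 and -1.91. Irf3, which is present before infection and activated by phosphorylation, was at 248 to 263 in control and 226 to 275 with the constructs, with differences of -0.06, 0.04 and 0.00 that did not pass.

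Irf8 and Irf5, factors of the monocyte and dendritic lineages, set MEIS1-WT apart. Irf8 was at 282, 240 and 359 in control, 68.9, 53.0 and 69.5 with MEIS1-WT, 255, 264 and 274 with MEIS1-deltaHD, and 305, 330 and 384 with M33-MEIS1. Only the MEIS1-WT arrays were low, by -1.95 against control (adjusted p = 6.5e-12 from limma), -1.82 against MEIS1-deltaHD (adjusted p = 2.12e-10) and -2.16 against M33-MEIS1 (adjusted p = 5.68e-12). Irf5 differed from control by -1.97, -1.34 and -0.65, and from MEIS1-WT both other constructs were higher (differences of MEIS1-WT from them of -0.63 and -1.32, adjusted p = 0.0141 and 1.62e-06). The monocyte and macrophage markers above showed the same order of constructs, and their part in these values was not tested.

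Of 6 inhibitors 4, 1 and 1 fell, where 19.4%, 22.7% and 18.3% of all features did. They were led by Socs3, a feedback inhibitor of Janus kinases, at -2.41, -1.19 and -0.94. Socs1, the inhibitor best known for interferon signalling, was dim and did not pass (-0.55, -0.33 and -0.06, adjusted p = 0.0728, 0.282 and 0.876 from limma). Of 10 nucleic acid sensors and their adaptors 4, 5 and 3 fell, the last of these counts the closest to those shares. Ifi204, a DNA-binding protein that is itself interferon-induced, was at 90.9, 168 and 180 in control, 0.606, 0.561 and 4.80 with MEIS1-WT, 10.8, 7.51 and 3.03 with MEIS1-deltaHD, and 9.30, 8.59 and 9.48 with M33-MEIS1, with log2 differences of -3.13, -2.78 and -2.64. The RNA receptor Tlr7 (-2.15, -1.94 and -1.72) and the nucleotide hydrolase Samhd1 (-1.70, -1.69 and -1.55) fell with each construct, while the adaptors Mavs (-0.16, -0.24 and -0.09) and Myd88 (-0.27, -0.22 and -0.18) did not pass in any of these comparisons. Between constructs, 8 of the 34 were lower with MEIS1-WT than with MEIS1-deltaHD and 12 than with M33-MEIS1, where 2.83% and 4.11% of all features were, with 0 higher (2 and 2 at an unadjusted p below 0.05), and Irf5 was higher with M33-MEIS1 than with MEIS1-deltaHD (0.69, adjusted p = 0.0353 from limma). The count of 8 fell to 5 without MEIS1-WT replicate 2, and Irf5 did not pass in the last comparison without MEIS1-deltaHD replicate 1, 2 or 3 or without M33-MEIS1 replicate 1 or 3. With each array scaled to a common median, the 23 against control became 15.

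**Figure D5:**
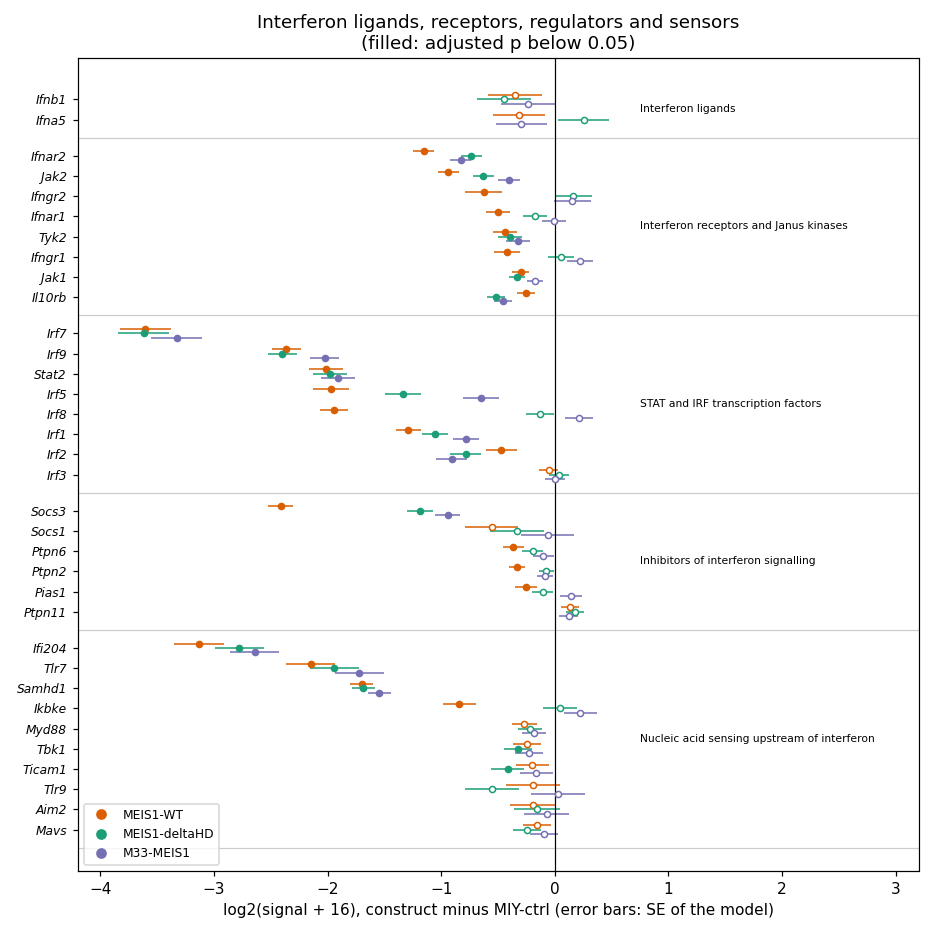
Differences from control in log2(signal + 16) for 34 interferon ligands, receptors, regulators and sensors (points: estimates; bars: standard error of the model; filled points: adjusted p below 0.05). Irf7, Irf9 and Stat2 lie near -2 or below with all constructs, Irf8 is low with MEIS1-WT alone, and the ligands are unfilled.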

How the data were processed

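The deposited values are array intensity, the signal of each probe set from GCOS 1.2 per the submitters' processing notes. The mean without the lowest and highest 2% was 100 on every array, so the authors had scaled them. How GCOS corrected background and summarised probes is not given in the sources used, and detection calls were not used. Of 45101 probe sets, 64 array controls were left out, 34945 carried 1 symbol in the platform annotation and 932 several. Probe sets above the 40th percentile of their array on at least 3 arrays were kept (31726), and each gene took its probe set with the highest mean, which gave 19990 features. Signals became log2(signal + 16), and 1 model of the 4 groups was fitted to 12 arrays with limma 3.58.1 in R 4.3.3 (intensity trend, 8 residual degrees of freedom). Two-sided p-values received the Benjamini-Hochberg adjustment in each of 6 comparisons. A rank test of 3 against 3 arrays cannot go below 0.1, and the number of arrays limits precision. The fitting code was tested on simulated data.

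The members and lists were chosen with earlier results of these data known. Shown array by array were, per role group, the 2 members with the largest difference with MEIS1-WT and the 1 with the smallest, up to 4 per comparison between constructs, and up to 3 genes per other list. Same-numbered arrays of different groups did not deviate together (correlations of -0.0385 to 0.0253 over 18 pairs), so no block was used. Alternatives numbered 22, including offsets of 1 and 64, 2 other scalings and each array left out. Promoter windows and gene order came from RefSeq tables.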

Additional observations from a re-analysis of the deposited data

How the results depend on the processing

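The count of 45 lower members against control was the same with each construct in 20 of 22 alternatives, the replicate block (45, 45 and 45) and each array left out among them. It was 44 with each construct when the probe set with the largest adjusted p stood for its gene, and 38 of the 38 members still measured without probe sets shared between transcripts or genes. For the other 7, Gbp3 and Trim30a among them, every probe set here was of this shared kind. Of 2949 single-gene values against control, 2946 kept direction and side of the threshold, and 3 no longer passed, all for Dhx58 by largest p (-0.40, -0.54 and -0.42). Between constructs 266 of 348 values held, 79 no longer passed and 3 reversed, in MEIS1-WT against M33-MEIS1 with that probe set rule: Dhx58 0.019, Trim21 0.035 and Parp14 0.34. The cause was not tested.

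The member medians against control (-2.94, -2.65 and -2.36 for MEIS1-WT, MEIS1-deltaHD and M33-MEIS1) moved with the offset by construction, to -3.37, -3.39 and -3.06 with 1 and to -1.97, -2.04 and -1.78 with 64. They were -2.75, -2.40 and -2.17 under median scaling, which turned the medians over all features from -0.12, -0.17 and -0.13 to 0.07, 0.09 and 0.06. With the probe set of largest p they were -2.24, -2.33 and -2.15, and without probe sets shared between transcripts the first was -2.75. Leaving out 1 array gave -3.10 to -2.84, -2.82 to -2.54 and -2.52 to -2.27. The 23 upstream genes lower with MEIS1-WT became 15 under median scaling.

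Counts between constructs were less stable. For MEIS1-WT against MEIS1-deltaHD the 3 lower members became 1 with the probe set of largest p, where Trim30a no longer passed (-0.40, adjusted p = 0.0908). Without shared probe sets the count was 0, with Gbp3 and Trim30a not among the genes tested. The 1 higher became 0 under median scaling, without the intensity trend and in some fits without 1 array (0 to 1), the median of -0.03 became -0.10 under median scaling, and 8 upstream genes became 4 by largest p, 4 without the trend and 5 to 10 without 1 array. For MEIS1-WT against M33-MEIS1 the 11 lower became 7 with an offset of 64, 5 by largest p, 7 without shared probe sets (Gbp3 and Trim30a again untested), 4 without the trend and 5 to 11 without 1 array. Its median of -0.27 became -0.35 and -0.13 with offsets of 1 and 64, -0.080 by largest p and -0.30 to -0.23 without 1 array, and 12 upstream genes became 7 by largest p. For M33-MEIS1 against MEIS1-deltaHD the 1 higher became 2 with an offset of 1, 0 with 64, by largest p, without the trend or with only the groups compared, and 0 to 2 without 1 array. Its median of 0.24 became 0.37 and 0.13 with the offsets, 0.17 under median scaling and 0.13 by largest p. Its 1 upstream gene became 0 with either offset, without the filter, under quantile or median scaling, by largest p and without the trend, and 0 to 1 without 1 array.

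With the replicate number as a block, the lower members between constructs were 2 for MEIS1-WT against MEIS1-deltaHD (Ifi35 no longer passed) and 10 against M33-MEIS1 (Ifit1bl1 no longer passed), and 1 was higher for M33-MEIS1 against MEIS1-deltaHD. Dim signal limits the size of large falls, since 6, 4 and 1 members were at or below the 40th percentile on all arrays of MEIS1-WT, MEIS1-deltaHD and M33-MEIS1.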
